A study of Mus musculus with 8 samples.

Results

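Windows of 1 Mb on mouse chromosomes 5 and 9 (GRCm38) were examined for the balance of reads between their 129 and CAST homologs in female embryonic fibroblasts. A window was kept when it held a gene with 10 or more allelic reads in WT and in XiΔXist, each gene being placed by its lowest coordinate. This gave 228 windows, 121 on chromosome 5 and 107 on chromosome 9, of 1892 such windows on the 19 autosomes. The 2 chromosomes were themselves chosen by the WT and XiΔXist shares described here, so every WT against XiΔXist value on them is a description, with no test. Of 269 windows of these chromosomes that hold a listed gene, 32 had none with a read in both pools. The least covered window inside the limit had 12 reads in its deepest gene, taking the lower of WT and XiΔXist, and the most covered window outside it had 9.

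RNA-seq reads came from clonal fibroblast lines labelled as a 129S1/SvImJ x CAST/EiJ cross, in which the 129 X chromosome is the inactive one. The study describes the 129 X as 129Sv4/Jae, and reads were split with variants of 129S1/SvImJ. WT fibroblasts were untreated and carried an intact Xist, the RNA that coats the inactive X. XiΔXist fibroblasts were untreated and lacked Xist on the inactive X, and the other 2 groups were XiΔXist fibroblasts given a lentiviral scramble hairpin (shSCR) or hairpins against Yy1 (shYY1), a zinc-finger transcription factor. Ages were not given in the sources used here. Each group had 2 samples, which the authors merged before alignment, so each group is 1 pool with 1 count per gene and allele. No spread between replicates can be given, and the intervals below cover counting error or the spread over windows only. WT and XiΔXist were separate clonal lines, so genotype and clone cannot be told apart.

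Autosomal genes took 18745483 of the 24310035 allelic reads of WT and 21342574 of 28329701 in XiΔXist. The hairpin pools were shallower, with 1470870 of 2393545 (shSCR) and 1472083 of 2504345 (shYY1). The median member window had 6828 (WT), 6888 (XiΔXist), 555 (shSCR) and 570 (shYY1) reads, so window shares are less precise in the hairpin pools. Xist had 35405 reads in WT and 21 in XiΔXist. Read levels are given as RPM, reads per 1000000 autosomal allelic reads of the pool, and Yy1 had 161 RPM in shSCR and 62.5 RPM in shYY1. Of 9 fibroblast markers 8 had 10 or more reads in every pool, Twist1 being at 0, and their summed level was 5033 to 15386 RPM. Of 10 markers of blood, endothelial, epithelial, pluripotent and muscle cells, 0 to 3 per pool had 10 reads, and their summed level was 2.40 to 4.76 RPM.

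In a diploid F1 cell each autosomal gene has 1 copy on the 129 homolog and 1 on the CAST homolog, and the reads that overlap a strain difference are divided between them. The share of 129 reads at a single gene also depends on the promoters and enhancers of each homolog, and on how well each allele's reads align. A change in the number of copies of a homolog moves all of its genes together, and fibroblasts that have been passaged in culture are known to gain and lose chromosomes. Chromosome 5 carries Pdgfra, Hgf and Spp1, and chromosome 9 carries Atm, Tgfbr2 and Ctnnb1.

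Both chromosomes had stretches read from both alleles and stretches read almost wholly from 129, and these ended at steps between neighbouring genes. The promoters of the genes flanking 2 of the 3 long steps are shown to mark these genes. No share or read count was taken from them. The sequences are RefSeq promoters on GRCm38.p6, 100 bases before and 30 bases after the annotated start, with the transcribed bases in capitals. They are reference sequence and hold neither the 129 nor the CAST variants.
Psmg3, chr5:139826865-139826994, minus strand: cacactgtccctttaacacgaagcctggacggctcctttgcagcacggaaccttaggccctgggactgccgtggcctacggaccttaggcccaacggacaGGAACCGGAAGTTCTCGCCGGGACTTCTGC
Mad1l1, chr5:140321523-140321652, minus strand: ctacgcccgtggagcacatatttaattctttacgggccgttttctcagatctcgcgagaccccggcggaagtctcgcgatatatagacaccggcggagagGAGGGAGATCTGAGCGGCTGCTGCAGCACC
Pik3cb, chr9:99140182-99140311, minus strand: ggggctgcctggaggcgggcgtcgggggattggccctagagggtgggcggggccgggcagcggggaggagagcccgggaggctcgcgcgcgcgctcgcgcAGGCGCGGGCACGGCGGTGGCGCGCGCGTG
Cep70, chr9:99243241-99243370, plus strand: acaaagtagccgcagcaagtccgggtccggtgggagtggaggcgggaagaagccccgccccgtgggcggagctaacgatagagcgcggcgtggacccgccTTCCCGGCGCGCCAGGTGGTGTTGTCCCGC

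On chromosome 5, Psmg3, which encodes a proteasome assembly chaperone, was the last gene of the long both-allele stretch. It had 38 reads from 129 and 10 from CAST in WT, 28 and 29 in XiΔXist, 24 and 19 in shSCR and 11 and 11 in shYY1. Mad1l1, a spindle checkpoint gene and the next in order, had 16, 17, 121 and 120 reads from 129 in the same pools and 0 from CAST in each. Behind it Eif3b, a translation initiation factor subunit, had 1460 reads from 129 and 1 from CAST in WT. On chromosome 9, Pik3cb, which encodes a catalytic subunit of phosphoinositide 3-kinase, had 213 reads from 129 and 566 from CAST in WT, and 200 and 278 in XiΔXist. Cep70, a centrosomal protein gene, was the neighbour after it and had 166, 151, 15 and 15 reads from 129 and 0 from CAST in each pool. The step therefore lay between the annotated ends of the 2 genes, at positions 99140621 and 99243367 of chromosome 9. At the other end of the stretch, Gramd1b had 54, 120, 26 and 21 reads from 129 in the same order of pools and 0 from CAST in each. The next gene, Clmp, encoding an adhesion molecule of the immunoglobulin family, had 419 reads from 129 and 511 from CAST in WT, and 26 and 9 in shSCR. Hspa8, a chaperone gene just behind it, had 92.6% in WT and 48.6% in shSCR, but transcripts of 14 other genes matched it and its allelic reads are uncertain. In each of the 4 pools, the genes on the 129 side of the 3 steps had no CAST read and their neighbours had reads of both alleles. Pik3cb itself matched 2 other genes. Psmg3, Mad1l1, Gramd1b, Clmp and Cep70 each overlap another listed gene, and how reads in the overlaps were counted is not known.

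Of the 121 windows of chromosome 5, 105 were read from both alleles, which means a median 129 share over genes of 10% to 90% in WT and in XiΔXist. Another 12 were read from 129 alone, 3 from CAST alone and 1 could not be placed in these classes. Chromosome 9 had 60 both-allele windows, 45 read from 129 alone, 1 from CAST alone and 1 other. Along chromosome 5 the both-allele windows ran from 3 to 140 Mb, broken by 6 single windows, and 1 more lay at 151 to 152 Mb beyond the 129 block, at 90% in WT and 83.3% in XiΔXist. The last 10 of the 129 windows formed a block from 140 to 151 Mb that held 102 genes. On chromosome 9 the first block of 129 windows reached 41 Mb with 1 single-gene window read from CAST. A run of 55 both-allele windows with 366 genes followed from 41 to 99 Mb, and beyond 99 Mb 129 windows alternated with 5 both-allele windows. The median share in the 129 block of chromosome 5 was 100% in WT, 99.9% in XiΔXist and 100% in both hairpin pools.

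**Figure D1:**
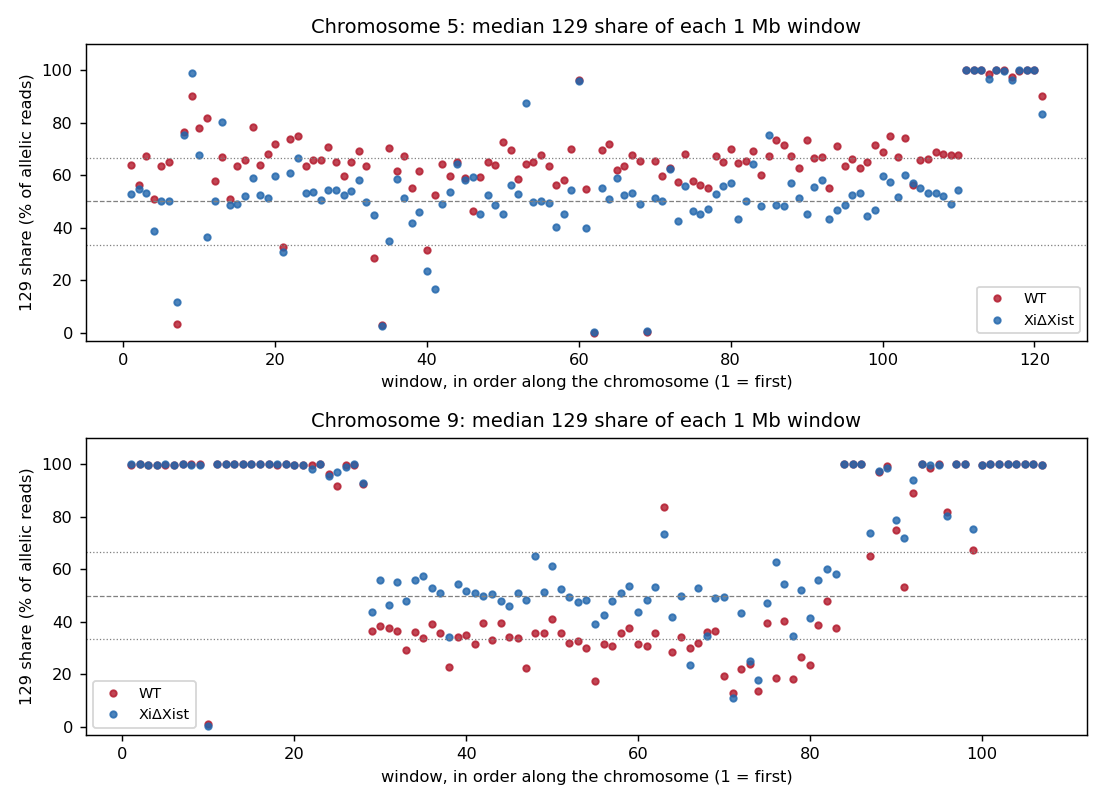
Median 129 share of each member window (percent of allelic reads, y axis) in order along the chromosome (x axis), for WT and XiΔXist. The dashed line is 50% and the dotted lines are 66.7% and 33.3%. The WT points lie above the XiΔXist points over most of chromosome 5 and below them through the middle of chromosome 9, and both pools sit near 100% in the 129 blocks.

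In the both-allele windows of chromosome 5, the 129 share was higher in WT than in XiΔXist. The median over 105 windows was 65.2% in WT (95% order-statistic interval 63.9% to 66.8%) and 52.4% in XiΔXist (50.3% to 53.2%). The interquartile range of the windows was 61.5% to 68.7% in WT and 48.5% to 55.9% in XiΔXist, so these ranges did not overlap. The WT share was higher in 99 of 105 windows and lower in 6, and 5 of those 6 held only 1 or 2 genes. It was higher by 10 points or more in 76 windows. Over all 19 autosomes 18.2% of both-allele windows passed that limit in that direction. A share of 60% or more in WT was found in 79 windows, against a background of 29%, and in 12 windows in XiΔXist.

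Chromosome 9 showed the mirror image. Over 60 both-allele windows the median 129 share was 34.6% in WT (31.8% to 36.3%) and 50.7% in XiΔXist (48.2% to 52.9%). The interquartile range was 30.1% to 38.0% in WT and 46.2% to 55.4% in XiΔXist. The WT share was lower in 55 of 60 windows, by 10 points or more in 45, against 10.1% of all autosomal both-allele windows. A WT share of 40% or less was found in 51 windows, with a background of 13.5%, and in 8 windows in XiΔXist. The direction count of 55 and the XiΔXist count of 8 have no background here. Among the 19 autosomes, chromosome 9 had the largest difference of medians between WT and XiΔXist (16.1 points) and chromosome 5 the next (12.9 points), as the choice of these chromosomes implies. The largest among the other autosomes was 10.9 points, on chromosome 14.

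The shift was spread along chromosome 5 and the middle part of chromosome 9 rather than held by a few windows. When chromosome 5 was cut into 3 equal parts of its gene span, the WT medians were 64.9%, 63.4% and 67.5%, and the XiΔXist medians were 52.2%, 51.3% and 52.9%. In the middle part of chromosome 9, which held 39 both-allele windows, the medians were 34.1% in WT and 50% in XiΔXist. In its last part, with 18 windows, WT was 38.2% (22.1% to 53.3%) and XiΔXist 55.2% (41.7% to 72.2%), and these intervals overlapped. Its first part held only 3 both-allele windows, with shares of 36.6% to 38.5% in WT and 43.7% to 55.8% in XiΔXist.

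Of the 6 both-allele windows with the most WT reads on each chromosome, the share was higher by 10 points or more in WT in 4 on chromosome 5 and lower by that much in 5 on chromosome 9. In the chromosome 5 window at 129 to 130 Mb, where the chaperonin gene Cct6a and the nuclear transport gene Ran gave the most reads, the median share of 20 genes was 66.8% in WT and 51.9% in XiΔXist, with 55% in shSCR and 50% in shYY1. At 108 to 109 Mb the shares were 65.5%, 50%, 50.6% and 55%. On chromosome 9, the window at 72 to 73 Mb with the ubiquitin ligase gene Nedd4 had shares of 37.7% in WT and 53.7% in XiΔXist, with 51.7% in shSCR and 60.4% in shYY1. The window at 52 to 53 Mb, in which the membrane linker gene Rdx was counted, had 34.1%, 54.4%, 51.6% and 48.5%. In these 4 windows WT stood apart from the other 3 pools, on the 129 side on chromosome 5 and on the CAST side on chromosome 9. At 98 to 99 Mb of chromosome 5, where Prkg2, a cGMP-dependent kinase gene, led, the shares were 62.6% in WT and 62.5% in XiΔXist, so WT did not stand apart there.

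Some window medians went the other way. On chromosome 5, the window at 41 to 42 Mb had a median of 28.6% in WT and 45% in XiΔXist over 5 genes. Of these genes, Bod1l had 68.8% in WT and 50.1% in XiΔXist, and Rab28 had 68.5% and 47.6%, so both were higher in WT. On chromosome 9, the window at 79 to 80 Mb had 30.1% in WT and 23.6% in XiΔXist, and 37.9% and 36.0% in shSCR and shYY1. Col12a1, a fibril-associated collagen gene, gave most of its reads. Col12a1 itself was slightly higher in WT, at 24.8% against 23.6% in XiΔXist. The summed reads of that window were not reversed, at 27.2% in WT and 33.0% in XiΔXist. The 3 chromosome 5 windows read from CAST alone held 1 gene each.

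The hairpin pools were not used to choose the chromosomes, and their medians lay near untreated XiΔXist. On chromosome 5 the median share was 54.7% in shSCR (52.6% to 56.1%, 103 windows) and 53.8% in shYY1 (52.1% to 54.7%, 101 windows). On chromosome 9 it was 50.4% in shSCR (47.4% to 52.2%) and 50.3% in shYY1 (48% to 53.3%), with 57 windows in each. A distance of 10 points or more between shSCR and untreated XiΔXist was found in 33 of 103 and 15 of 57 windows, below the background of 45.7%. The shYY1 share was 10 points or more from shSCR in 21 of 100 chromosome 5 windows and 6 of 56 chromosome 9 windows, with a background of 17.1%. The hairpin pools came from XiΔXist cells and differ from them also in transduction, selection and depth, which cannot be told apart. Their shares were not near XiΔXist everywhere, as 5 other autosomes had shSCR medians 10 points or more away. The shSCR and XiΔXist medians were 0% and 49.9% on chromosome 14, 26.8% and 49.8% on chromosome 12, and 70.8% and 48.6% on chromosome 2. Read levels differed too. The 129 reads of Actb were 80.2 RPM in shSCR and 1123 RPM in XiΔXist, and those of Rplp0 534 and 6.23 RPM.

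**Figure D2:**
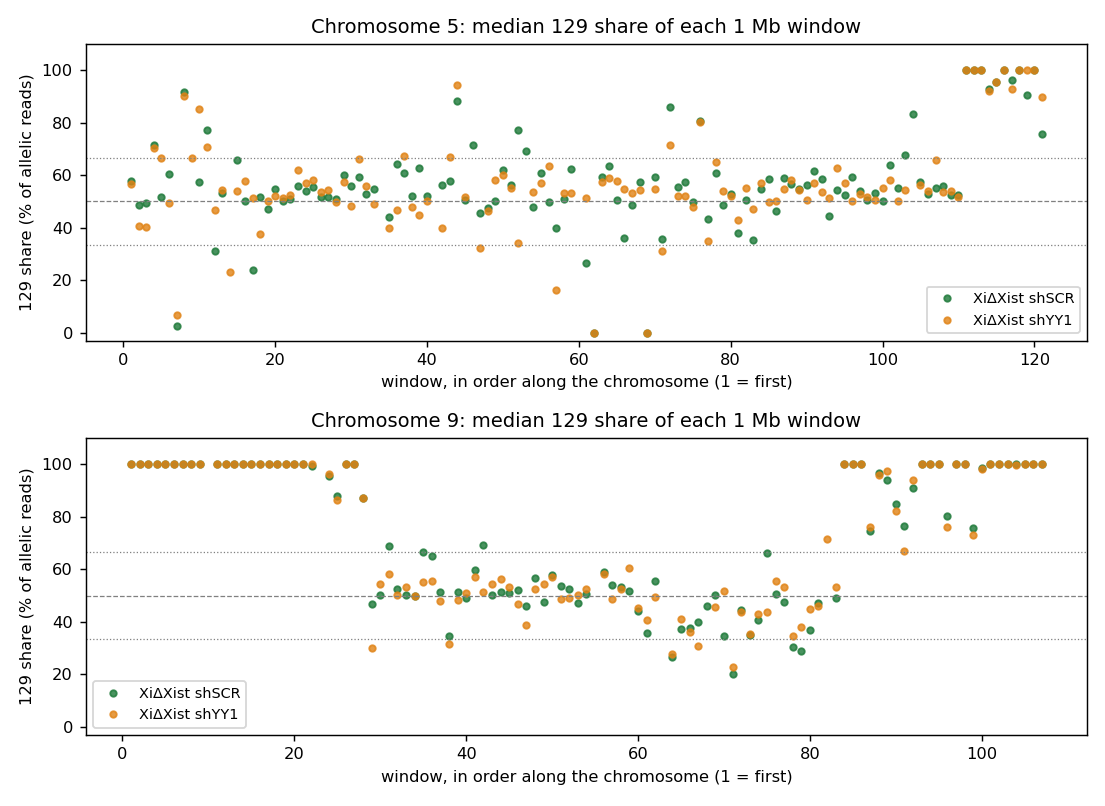
Median 129 share of each member window (percent of allelic reads, y axis) in order along the chromosome (x axis) in XiΔXist shSCR and XiΔXist shYY1, with dashed and dotted lines at 50%, 66.7% and 33.3%. The points of both pools scatter around 50% over chromosome 5 and the middle of chromosome 9, more widely than in the deeper untreated pools, and reach 100% in the 129 blocks.

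**Figure D3:**
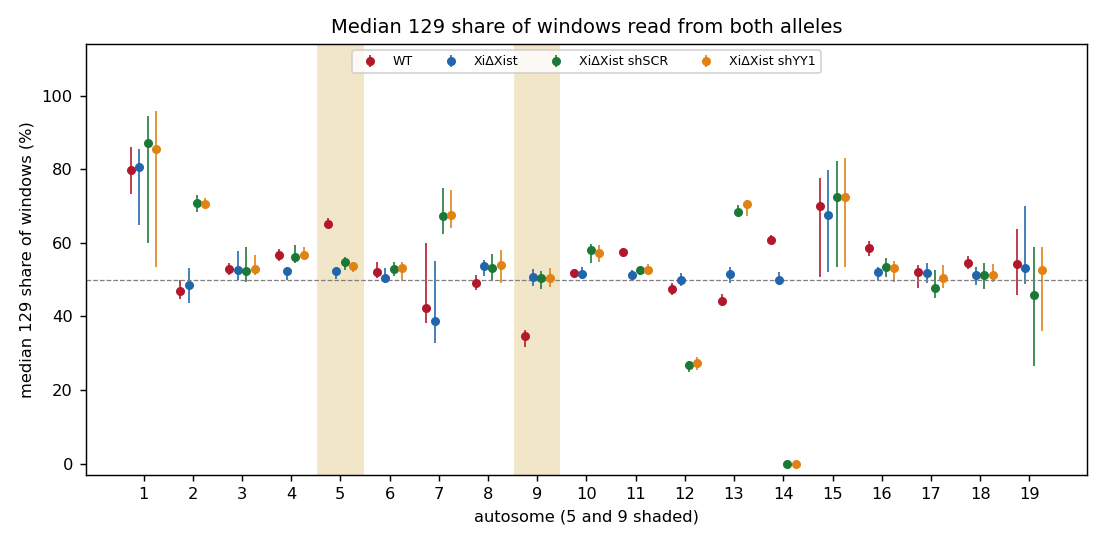
Median 129 share of both-allele windows (percent, y axis) for each autosome (x axis) and pool, with the 95% order-statistic interval of the median as bars where 6 or more windows allow one. On shaded chromosomes 5 and 9 WT stands apart at 65.2% and 34.6%, whereas the other 3 pools lie between 50.3% and 54.7%.

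The RPM values showed which allele carried the difference. On chromosome 5, 129 reads were higher in WT, with a median log2 ratio over XiΔXist of 0.45 (0.37 to 0.50), and CAST reads were lower, with a median of -0.34 (-0.41 to -0.26). Their sum had a median log2 ratio of 0.14 (0.04 to 0.19). The 129 reads were 1.25-fold or more higher in 72 of 105 windows, against 24.7% of all autosomal both-allele windows, and the CAST reads 1.25-fold or more lower in 55, against 24.1%. On chromosome 9, CAST reads had a median log2 ratio of 0.58 (0.49 to 0.65), 129 reads one of -0.31 (-0.41 to -0.20) and their sum one of 0.20 (0.14 to 0.28). CAST reads were 1.25-fold or more higher in 48 of 60 windows, against 20.4%, and 129 reads 1.25-fold or more lower in 29, against 17.1%. So on each chromosome 1 allele was up and the other down in WT. The median log2 ratios over 861 both-allele windows of the other autosomes were 0.05 for 129 reads, -0.03 for CAST reads and 0.00 for the sum. Single other autosomes had medians from -0.31 to 0.29 for 129 reads, -0.78 to 0.27 for CAST reads and -0.44 to 0.21 for the sum. The higher allele of chromosomes 5 and 9 lay outside these ranges, and their lower allele and their sum lay inside. By the sum, chromosome 9 ranked 2 and chromosome 5 ranked 6 of 19 from the top.

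The arithmetic of a 2:1 ratio can be set beside these values. With 1 copy of a homolog added to 1 and 1, its share goes from 50% to 66.7%, the log2 ratio of its reads is 1.00, that of the other homolog 0.00 and that of the sum 0.58. If the sum stayed level with the rest of the genome, the same shares go with log2 ratios of 0.42, -0.58 and 0.00. With 1 copy missing from 2 and 2, they go with 0.00 for the kept homolog, -1 for the reduced one and -0.42 for the sum. The median shares in WT lay near the ratio, with intervals that held 66.7% on chromosome 5 and 33.3% on chromosome 9. That was so under 3 of 11 other settings on chromosome 5, where the upper bound fell below 66.7% in the other 8, and under 9 of 11 on chromosome 9. Over genes with 100 or more reads in place of windows, the median WT shares were 65.6% (64.9% to 66.4%) and 34.8% (33.9% to 35.9%), and neither interval held the 2:1 share. On chromosome 5 and on chromosome 9 the log2 ratios of the higher allele, of the lower allele and of the sum all lay between those of the first and the second case, and none of the 3 cases met all 3 medians of either chromosome. For the 129 reads of chromosome 5 the interval spanned the second case, and the median fell below it under 5 of 10 other settings, to 0.32 at the lowest. The other 5 placements held under all 10. In every case the log2 ratios of the 2 alleles differ by 1.00. The measured difference, taken window by window, had a median of 0.77 on chromosome 5 (0.73 to 0.80) and -0.86 on chromosome 9 (-0.95 to -0.83), short of 1.00 on both. In bulk RNA, the share of cells with a homolog and the RNA made per copy cannot be told apart. Copy number was not measured, and whether all cells or only some carried an extra homolog was not tested.

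**Figure D4:**
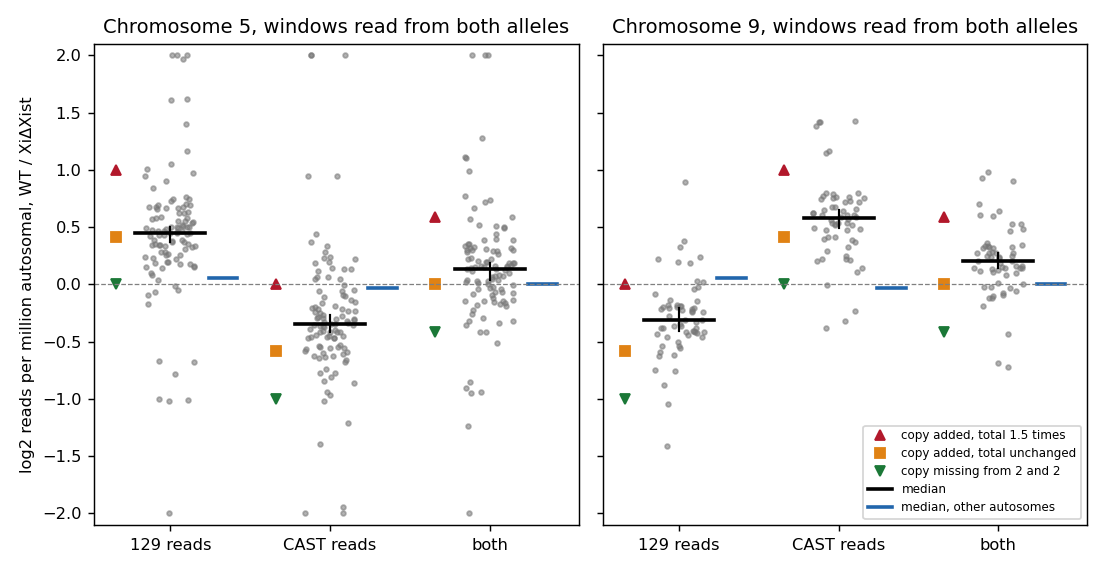
Log2 ratio of WT over XiΔXist in RPM (y axis) for 129 reads, CAST reads and both together in both-allele windows. Grey points are windows, with 4 or 5 values per column of chromosome 5 drawn at the edge of the axis, black bars are medians with their 95% order-statistic intervals, blue bars are the medians of the other autosomes, and the symbols mark the 3 copy-number cases. The medians lie between the triangle and the square in all 6 columns.

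The result also depended on where an even share is set. Over all autosomal genes read from both alleles, the median 129 share was 54.7% in WT and 51.9% in XiΔXist, which includes chromosomes 5 and 9. With CAST reads scaled so that this median was 50% in each pool, the WT medians became 60.8% (59.5% to 62.5%) on chromosome 5 and 30.5% (27.9% to 32.1%) on chromosome 9, and neither interval held the 2:1 share.

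In the windows read from 129 alone, no share can show a change, but the reads can. On chromosome 9 the median log2 ratio of WT over XiΔXist in total reads was 0.28 (0.20 to 0.39) over 45 such windows, 39 of which were higher in WT. It was 0.36 (0.15 to 0.52) in the 27 windows before the both-allele stretch and 0.26 (0.10 to 0.30) in the 18 after it, so the reads were higher in WT in the 129 blocks on either side as well as in the stretch between them. On chromosome 5 the median was 0.09 (-0.09 to 0.17) over 12 windows, and its interval held 0. The same ratio over 749 such windows of the other autosomes was 0.05 (0.02 to 0.09), and 424 of the 749 were higher in WT.

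Single genes of the 129 windows were nevertheless read from both alleles. Of 60 genes with 50 or more reads in the 129 windows of chromosome 5, 8 had shares of 10% to 90% in WT and XiΔXist, and the share was higher in WT in all 8. On chromosome 9 there were 15 such genes of 212, and the share was lower in WT in 14. Clmp and Pik3cb were among the 15, though they lie on the both-allele side of the steps, in windows whose median was 129 alone. No share over all autosomes was set beside these counts. Tgfbr2, a receptor for transforming growth factor beta, had a share of 43.3% in WT and 54.2% in XiΔXist, with 56.6% in shSCR and 61.9% in shYY1. Ets1, a transcription factor gene, had 59.3%, 64.3%, 84.1% and 92.3%. The DNA damage checkpoint kinase gene Chek1 had 65.9%, 72.4%, 91.4% and 86.4%. On chromosome 5, Actb, the cytoplasmic beta-actin gene, had 63.2%, 52.7%, 49.4% and 60.7%. Transcripts of 3 other genes shared 200 or more bases of at least 90% identity with Actb, and reads from such copies cannot be told apart here. Of the other counted genes on chromosome 5, Hmgb1 had 125 matching genes, Ccz1 12 and Polr1d 1. On chromosome 9, 3000002C10Rik had 124, and Pik3cb and Gm8641 had 2 each.

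The shares of single genes varied widely around the chromosome medians. In both-allele windows, 526 genes of chromosome 5 and 263 of chromosome 9 had 100 or more reads in WT and in XiΔXist. On chromosome 5 the share was higher in WT for 484 genes and lower for 37, with a median difference of 12.5 points and quartiles of 8.44 and 15.4 points. On chromosome 9 it was lower for 253 and higher for 10, with a median difference of -14.5 points and quartiles of -17.0 and -10.6. Backgrounds over all autosomes were not computed for these direction counts. The 95% Wilson interval of the WT share held 66.7% for 196 of the 526 genes, against 13.6% of such genes on all autosomes, and held 50% for 40, against 20.4%. On chromosome 9 it held 33.3% for 84 of 263 genes, against 5.91%, and 50% for 14, against the same 20.4%. In XiΔXist the interval held 50% for 175 genes of chromosome 5 and 85 of chromosome 9, against 28.3% on all autosomes. Within windows of 5 or more such genes, the interquartile range of gene shares had a median of 8.64 points in WT and 8.42 points in XiΔXist on chromosome 5, and 6.97 and 10.2 points on chromosome 9.

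The listed genes were counted against all genes with 50 or more reads in both-allele windows. A share higher by 10 points or more in WT was found for 412 of 622 such genes on chromosome 5 and for 19.5% on all autosomes, and one lower by that much for 231 of 305 on chromosome 9 and for 10.5% on all autosomes. No list was tested against its chromosome or against another list.

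Genes of DNA repair and the cell cycle come first. On chromosome 5, 8 of the 11 listed genes lay in both-allele windows with 50 or more reads, and all 8 were higher by 10 points or more in WT, with shares of 62.6% to 71.9% in WT and 42.5% to 54.7% in XiΔXist. Cdk6, a G1 kinase, had 71.9% in WT and 48.6% in XiΔXist, and 55.4% and 54.6% in shSCR and shYY1, with 4 matching genes. Cenpa, the centromeric histone H3 variant, had 68.8% in WT and 54.4% in XiΔXist. Ccng2, encoding cyclin G2, had 68.5% and 49.2%. Brca2, a homologous recombination gene in the 129 block, had 99.9% in WT and 100% in XiΔXist. On chromosome 9, 5 such genes were lower by 10 points or more in WT. Atm, a DNA damage kinase, had 35.9% in WT (34.9% to 37.0%) and 52.6% in XiΔXist (51.5% to 53.7%), and 46.2% and 54.2% in the hairpin pools. Kif23, a kinesin of cytokinesis, had 34.8% and 51.1%, and the mitotic cyclin gene Ccnb2 had 16.3% and 48%.

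Of the housekeeping and translation genes, 3 of 4 on chromosome 5 in both-allele windows were higher by 10 points or more in WT. Ran had 69.5% in WT and 56.2% in XiΔXist, and Ywhag, an adaptor of the 14-3-3 family, had 64.5% and 53.2%. On chromosome 9, 4 of 6 were lower by that much. The ribosomal protein gene Rpl4 had 36.1% in WT and 50.8% in XiΔXist, with 48% in shSCR and 54.3% in shYY1, and Cox7a2, a subunit of cytochrome c oxidase, had 32.8% and 48.8% in the untreated pools. Rplp1 lay far from the chromosome, at 90.6% in WT and 96.6% in XiΔXist against 62.8% in shSCR. Transcripts of 10 other genes matched it, so its allelic reads are uncertain, as are those of Ran and Rpl4, which had 3 and 1 such matches.

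Of the matrix and growth signalling genes on chromosome 5, Spp1, which encodes the matrix protein osteopontin, had 34527 reads in WT and 357064 in XiΔXist, with shares of 94.7% and 88.2%. It weighed on the summed reads of the both-allele windows. Their log2 ratio of WT over XiΔXist was -0.27 for 129 reads with Spp1 and 0.19 without it, and -0.39 and -0.08 for all reads, so windows are described by medians. Sgcb, a sarcoglycan, had 100% in WT and 46% in XiΔXist, and Hgf, hepatocyte growth factor, had 86.7% and 36.6%. Pdgfra, a receptor for platelet-derived growth factor and a fibroblast marker, had 40.8% in WT and 22.7% in XiΔXist, with 12.2% in shSCR and 12.7% in shYY1, so it leaned to CAST in every pool and was still higher in WT than in XiΔXist. All 5 growth signalling genes in both-allele windows of chromosome 5 were higher by 10 points or more in WT, and 4 of 6 matrix genes were. On chromosome 9, 3 of 8 matrix genes and 2 of 3 growth signalling genes were lower by that much. Tpm1, a tropomyosin, had 30.1% in WT and 50.1% in XiΔXist, with 53.6% in shSCR and 49.9% in shYY1. Plod2, a collagen lysyl hydroxylase, had 18.3%, 34.5%, 30.4% and 40.3%. Col12a1 had 24.8% in WT and 23.6% in XiΔXist, and the surface glycoprotein gene Thy1 had 100% and 99.7%. Of the growth signalling genes in the 129 blocks of chromosome 9, Ctnnb1 (beta-catenin), Yap1 (a Hippo pathway coactivator), Rhoa (a small GTPase) and Birc2 (an apoptosis inhibitor) had 99.7% or more in both untreated pools. Magi2, the only gene of the imprinted list with enough reads, had 51.0% in WT and 48.6% in XiΔXist.

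**Figure D5:**
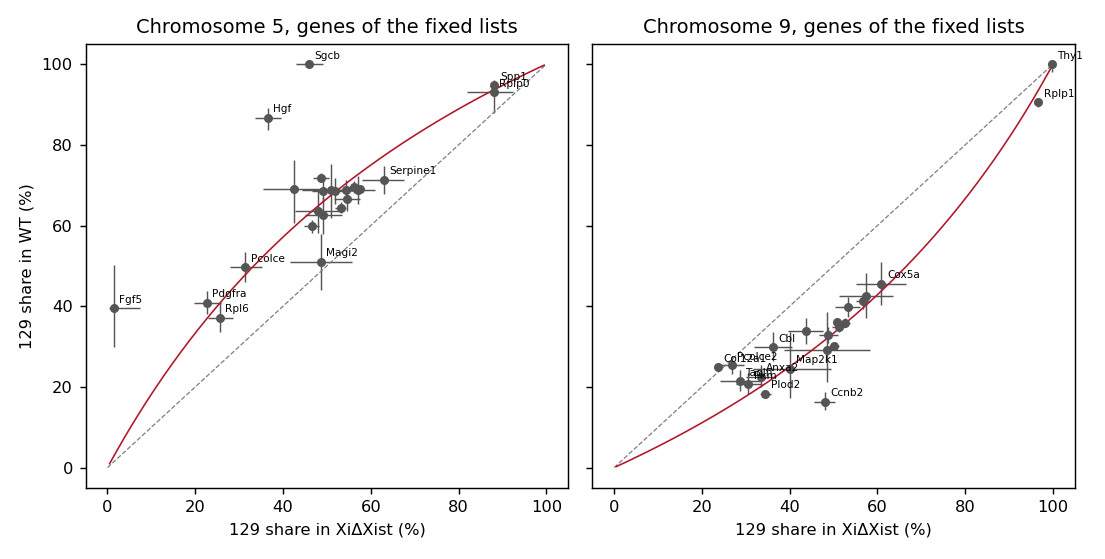
The 129 share in WT (percent, y axis) against that in XiΔXist (percent, x axis) for genes of the fixed lists in both-allele windows, on chromosome 9 those from 41 to 99 Mb, with 95% Wilson intervals as bars and symbols given outside the crowded part. The dashed line marks equal shares and the red curve a change of 2:1 in the ratio of the alleles, toward 129 on chromosome 5 and toward CAST on chromosome 9. Among the genes away from the curve are Sgcb, Hgf, Fgf5 and Magi2 on chromosome 5, and Ccnb2, Col12a1, Pcolce2 and Cbl on chromosome 9.

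The genes with the most extreme shares in WT were also given, as the 5 highest and 5 lowest of each chromosome. On chromosome 5 the chemokine gene Cxcl1 had 1 read from 129 of 101 in WT, a share of 0.99%, against 71.2% in XiΔXist. Gtpbp10, a GTP-binding protein gene with a copy elsewhere, had 4.69% and 36.5%, and the ectoenzyme gene Cd38 6.11% and 34.9%. Chchd2 and Cdk2ap1 were low in both untreated pools and had 5 and 2 matching genes. At the other end, Gsap had 99.2% in WT and 72.9% in XiΔXist, Stard13 had 98.1% and 98.3%, and Gm7879, with 8 matching genes, had 100% in both. Spp1 and Sgcb completed the 5. On chromosome 9 the lowest were Unc13c at 2.63% in WT and 13.6% in XiΔXist, Plscr2 at 6.75% and 25.9%, Me1 (3 matching genes) at 10.2% and 16.6%, Gclc at 10.3% and 12.3%, and Tent5a at 10.9% and 43.8%. The highest were Thy1, Ryk at 100% in both, Uchl4 (2 matching genes) at 96.2% and 96.9%, Lrrfip2 at 91.6% and 94.9%, and Rplp1.

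Between shYY1 and shSCR, which were compared at like depth, the differences on both chromosomes were under 0.1 on the log2 scale. The median log2 ratio of shYY1 over shSCR was -0.06 (-0.09 to -0.02) for 129 reads and 0.02 (-0.05 to 0.06) for CAST reads on chromosome 5, and 0.05 (-0.03 to 0.14) and 0.04 (-0.04 to 0.13) on chromosome 9.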

How the data were processed

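Allele-specific RNA-seq of 8 samples in 4 groups was used as deposited, as raw counts per gene and allele. The authors pooled the 2 samples of a group, aligned reads with TopHat to a SNP-masked GRCm38 (mm10) genome, removed low-quality alignments, divided reads between 129S1/SvImJ and CAST/EiJ with SNPsplit and counted exons with featureCounts 1.6.3. The annotation release and strand setting were not given in the sources used here. Of 46078 gene identifiers, 45143 matched the GENCODE M21 annotation, which gave positions and symbols.

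A window's share is the median over its genes with 10 or more allelic reads, and its reads are sums per 1000000 autosomal allelic reads (RPM). Intervals of medians are binomial order-statistic intervals, and those of genes are Wilson intervals at 95%. PCR duplicates are not independent molecules, so intervals cover counting error only. Genes were named as the deepest of fixed lists (at most 4 per list and chromosome, with others given where they are exceptions), the 5 highest and 5 lowest WT shares among protein-coding genes with 100 reads, and the genes at the ends of runs. Thresholds were 10 percentage points and 1.25-fold. Transcripts were compared with blastn for matches of 200 bases at 90% identity. The members, lists and limits were chosen with earlier results of these data known. The code was tested on simulated data, and Python 3.11.15 with pandas 2.3.3 was used. The values of 1 listed gene are not reported here.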

Additional observations from a re-analysis of the deposited data

How the results depend on the processing

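No paired analysis was possible because each group was deposited as a single pool, and for the same reason no replicate could be left out. Of 163 alternative values, 142 stayed within the interval of the reported median or within 1.5 times the reported count. With CAST reads scaled to an even autosomal median, the share became 60.8% in WT, 50.8% in shSCR and 49.6% in shYY1 on chromosome 5, and 30.5%, 46.6% and 46.2% on chromosome 9. With one-allele windows included, the chromosome 9 shares became 41.3% (WT), 62.9% (XiΔXist), 69.2% (shSCR) and 63.8% (shYY1), and the log2 ratio of its 129 reads -0.041, because windows read from 129 alone entered. In windows of 5 Mb the log2 ratios on chromosome 5 were 0.32 for 129, -0.45 for CAST and 0.030 for the sum, and that of the sum on chromosome 9 was 0.11. The XiΔXist share of chromosome 5 was 53.2% from summed reads, and the shYY1 share 54.8% in 2 Mb windows. At 15 points, 31 chromosome 5 windows remained past the limit. Without Spp1, chosen after its values were seen, the summed log2 ratios of chromosome 5 were 0.19 for 129 (from -0.27), -0.49 for CAST and -0.08 for both. The WT shares kept their sides of 50% under every alternative run, at 60.8% to 65.8% on chromosome 5 and 30.5% to 41.3% on chromosome 9. Where the cause is not stated, it was not tested. In the hairpin pools the median both-allele window had 570 and 577 reads, which limits single windows.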

Other observations

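WT medians away from 50% were also found on other autosomes, with or without a like difference from XiΔXist. In both-allele windows the median 129 share in WT and XiΔXist was 60.8% and 49.9% on chromosome 14, 58.7% and 52.1% on chromosome 16, 57.6% and 51.3% on chromosome 11, and 44.2% and 51.5% on chromosome 13. On chromosome 14 the median log2 ratio of WT over XiΔXist was -0.23 for 129 reads and -0.78 for CAST reads, so both alleles were lower. The alleles had opposite signs on chromosomes 11 (0.15 for 129 and -0.21 for CAST), 13 (-0.31 and 0.10) and 16 (0.13 and -0.26), as on chromosomes 5 and 9. In WT and XiΔXist the share was 69.9% (50.6% to 77.7%) and 67.6% on chromosome 15, 79.7% and 80.5% on chromosome 1 and 42.3% and 38.8% on chromosome 7. Chromosomes 2, 7, 12, 13 and 14 had shSCR medians 10 points or more from untreated XiΔXist, and chromosomes 5 and 9 did not, at 2.30 and -0.30 points.

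Of the 60 both-allele windows of chromosome 9, 5 lay beyond 99 Mb. At 102 to 103 Mb the share was 65.2% in WT and 74.1% in XiΔXist, and at 115 to 116 Mb, with 1 gene, it was 67.4% and 75.4%.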
